A study of Homo sapiens with 20 samples.

Results

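The genes examined here encode the subunits, activators, inhibitor and dedicated assembly factors of the proteasome. They were taken by name, as the rows of the deposited table whose symbol starts with PSMA, PSMB, PSMC, PSMD, PSME, PSMF or PSMG and ends in a number. Of the 24196 genes in the table, 47 met this rule. The 5 genes of the interferon-inducible immunoproteasome, PSMB8, PSMB9, PSMB10, PSME1 and PSME2, were kept apart from the 42 others.

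The libraries were made from polyA RNA of orthotopic tumors of OVCAR8, a human high-grade serous ovarian cancer line. Per the methods, the cells were placed orthotopically in NSG mice aged 6 weeks, a strain that lacks mature T, B and NK cells. Treatment was weekly and intraperitoneal over 35 days, with sodium gluconate at 1 mg/kg or with PBS alone, in groups of 4 mice. Each group has 4 libraries in the table, and the other 12 libraries of the series, from knockout cells and their controls, were not analysed here. All tumors came from 1 cell line. The study names sgNC-luc cells for the gluconate model, so both groups would carry the same control guide and luciferase. The labels do not say whether each library came from a separate mouse, and the p-values measure only the spread between these libraries. The table heads its columns C and T, read as PBS and gluconate from the axis of the study's plot of gluconate against PBS. The legend of that plot speaks of treated OVCAR8 cells, whereas the sample titles name orthotopic tumors, and the titles were followed here.

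The proteasome is the main machine by which cells degrade proteins marked with ubiquitin. Its 20S core particle is a barrel of alpha rings (PSMA genes) around beta rings (PSMB genes), and PSMB5, PSMB6 and PSMB7 carry its proteolytic sites. The 19S regulatory particle unfolds substrates with a ring of ATPases (PSMC genes) and recognises and strips ubiquitin with its PSMD subunits. Under interferon gamma, PSMB8, PSMB9 and PSMB10 replace PSMB5, PSMB6 and PSMB7, and PSME1 and PSME2 form the PA28 alpha/beta activator. The resulting immunoproteasome is known for making peptides that MHC class I molecules present.

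Values are FPKM, fragments of a gene scaled by its length and by the fragments of the library, so that levels of genes are compared per length, with the lengths used in the deposited values. PBS replicate 4 stood apart from the other 7 libraries. It rested on 3953206 fragments, against 39325749 to 46551535 in the others, and its correlation with them on the log2 scale over all genes tested was 0.938 to 0.951, against 0.980 or more among the others. The main comparisons are therefore given with and without it. The tumor markers PAX8, KRT8 and EPCAM were present in every library, with PAX8 at 32.4 to 50.7 FPKM, while MUC16, KRT19 and CDH1 were below 0.2 FPKM throughout. Of the 7 epithelial markers tested, KRT7 was higher in gluconate tumors (log2 fold change 0.73, and 0.48 without PBS replicate 4) and none was lower, where 3.13% of all genes tested were higher and 1.49% lower. WT1 (-0.67), KRT18 (-0.33) and KRT8 (-0.20) were below 0 and did not pass. Without PBS replicate 4 they were at -0.14, -0.31 and -0.21. WT1 had 6.58 FPKM in PBS replicate 4, against 1.07 to 1.82 FPKM in the other libraries. The median of the 7 was 0.06, and -0.14 without PBS replicate 4. The defining lymphoid and endothelial markers in the table stayed below 1 FPKM in every library, and PTPRC, the pan-leukocyte marker, did not exceed 0.02 FPKM. Of the 8 myeloid markers, 6 were in the table, and 4 of these (PTPRC, CD14, CSF1R and FCER1G) stayed below 1 FPKM in every library. CD68 lay between 19.7 and 28.0 FPKM, ITGAM was below 1 FPKM in 7 libraries and at 1.36 FPKM in PBS replicate 4, and 0 of these 2 passed the test. Reads of mouse origin were not separated here, and fewer cells of a type and less RNA per cell cannot be told apart in bulk tumors.

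Most proteasome genes were strongly expressed. Of the 47 members, 46 had a mean of at least 0.5 FPKM, the minimum for testing. The exception was PSMB11, the beta subunit of the thymoproteasome, at 0, 0.0116, 0.108 and 0 FPKM in PBS replicates 1 to 4 and 0, 0.0253, 0 and 0 FPKM in the gluconate replicates, which is 0 to 8 fragments per library. Fragments of the members made up 0.597% to 0.653% of each library. Their summed level was 3408 to 3815 FPKM in PBS tumors and 3658 to 3785 FPKM in gluconate tumors, and the groups overlapped.

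Subunits that are present in equal copy number in the assembled particle differed widely in FPKM, as did the gene lengths behind the scaling. In the alpha ring, mean levels over the 8 libraries ran from 39.0 FPKM for PSMA5 to 243 FPKM for PSMA7, a 6.24-fold range. In the constitutive beta ring they ran from 31.1 FPKM for PSMB2 to 218 FPKM for PSMB7, a 7.00-fold range. The ATPases ran from 15.7 FPKM for PSMC2 to 132 FPKM for PSMC5, an 8.38-fold range. Among the other base subunits, PSMD2, which docks ubiquitin shuttle proteins, had 178 FPKM and PSMD1 had 40.7 FPKM, and in the lid the levels ran from 23.6 FPKM for PSMD12 to 141 FPKM for PSMD8. The lengths recovered from the deposited values were 3815 bases for PSMA5 and 962 for PSMA7, and fragments in PBS replicate 1 were closer than the FPKM values, at 6962 and 11095. The same held for PSMB2 and PSMB7, with lengths of 4528 and 984 bases and 6565 and 10066 fragments in that library. For PSMC2 and PSMC5 the recovered lengths were 3210 and 1652 bases, with 2571 and 10012 fragments in PBS replicate 1. How much of these ranges comes from gene length was not tested.

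Assembly and regulatory genes outside the immunoproteasome lay in the lower part of this range, apart from PSMG2 and PSME3. The base chaperones PSMD5, PSMD9 and PSMD10 lay between 20.3 and 29.5 FPKM. The core chaperones lay between 1.98 FPKM for PSMG4, the lowest of the 46 tested members, and 75.9 FPKM for PSMG2. PSMF1, an inhibitor of the core particle, had a mean of 18.4 FPKM. Of the activators outside the immunoproteasome, PSME3 (PA28 gamma, a nuclear activator) had 66.9 FPKM and PSME4 (PA200, which acts on acetylated histones) had 8.42 FPKM. From PSMG4 to PSMA7 the members spanned 123-fold in FPKM, with a recovered length of 10891 bases and 980 fragments in PBS replicate 1 for PSMG4 against the 962 bases and 11095 fragments of PSMA7.

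**Figure D1:**
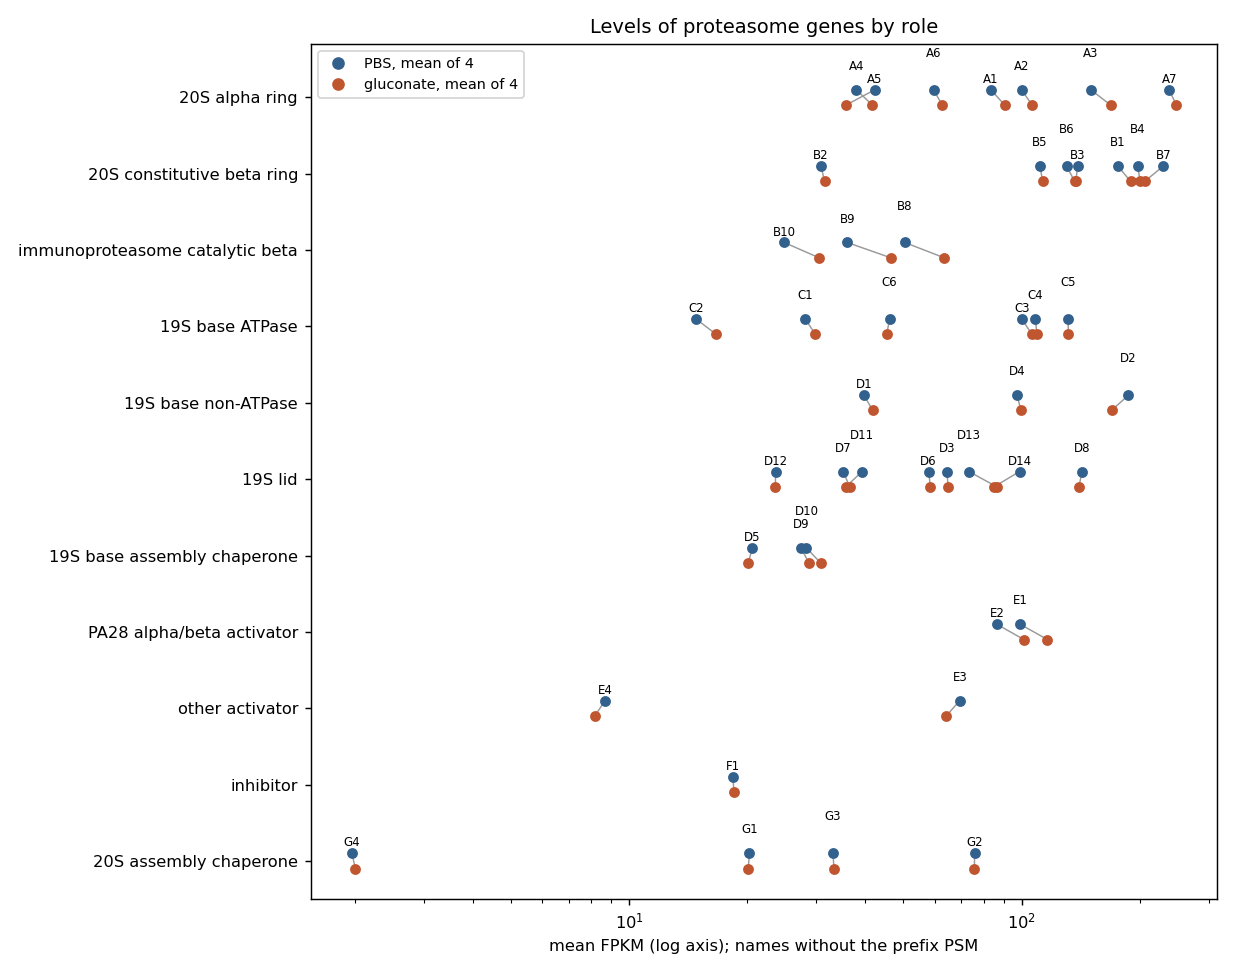
Mean FPKM of the 46 tested members on a log axis, 1 row per role, with PBS tumors in blue above and gluconate tumors in orange below, joined by a line for each gene (n = 4 libraries per group). The spread of levels differs between roles, from 39.0 to 243 FPKM in the alpha ring but 20.3 to 29.5 FPKM among the base chaperones. The points of a pair lie close together for most genes.

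Gluconate and PBS tumors were compared gene by gene with limma on log2(FPKM + 0.1) over the 12486 genes with a mean of at least 0.5 FPKM. A member was called in its direction where the unadjusted p fell under 0.05. By this rule 1 of 46 members was lower in gluconate tumors (PSMA5), where 1.49% of all genes tested were lower, and 1 of 46 was higher (PSME2), where 3.13% of all genes were higher. Both counts lie near these background shares. No gene of the 12486 had an adjusted p under 0.05 in limma, the smallest being 0.740, while 577 (4.62%) had an unadjusted p under 0.05. Limma voom on recovered fragments likewise called none after adjustment. Of the 577 genes, 391 were higher and 186 lower. The same rule called other sets of genes in other fits. These were 368 higher and 350 lower after scaling by median ratios, and 357 higher and 421 lower without PBS replicate 4. Without PBS replicate 4, PSMA5 was again lower (background 3.36%) and 0 of 46 members were higher (background 2.85%).

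The direction of small differences followed PBS replicate 4. With all libraries, 35 of 46 members (76.1%) had a log2 fold change above 0, against 66.4% of all genes tested. Without PBS replicate 4, 21 of 46 members (45.7%) did, against 49.1% of all genes. The median log2 fold change of all genes moved from 0.07 to -0.00 when that library was left out. It was also 0.00 after scaling by median ratios, but that scaling centres each library on its median ratio, so this value follows from the method.

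The widths of the intervals show how closely each difference was bounded, gene by gene and without adjustment for the number of genes. The share of all genes tested within the same bounds was not computed, so the counts do not set the members apart from other genes. The 95% interval of the difference lay within 1.5-fold in either direction for 42 of 46 members, comprising 40 of the 41 other members tested and 2 of the 5 immunoproteasome genes. Without PBS replicate 4 this held for 45 of 46. For a narrower bound of 1.25-fold the counts were 29 of 46 and, without PBS replicate 4, 37 of 46, with 0 immunoproteasome genes among them in either case.

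**Figure D2:**
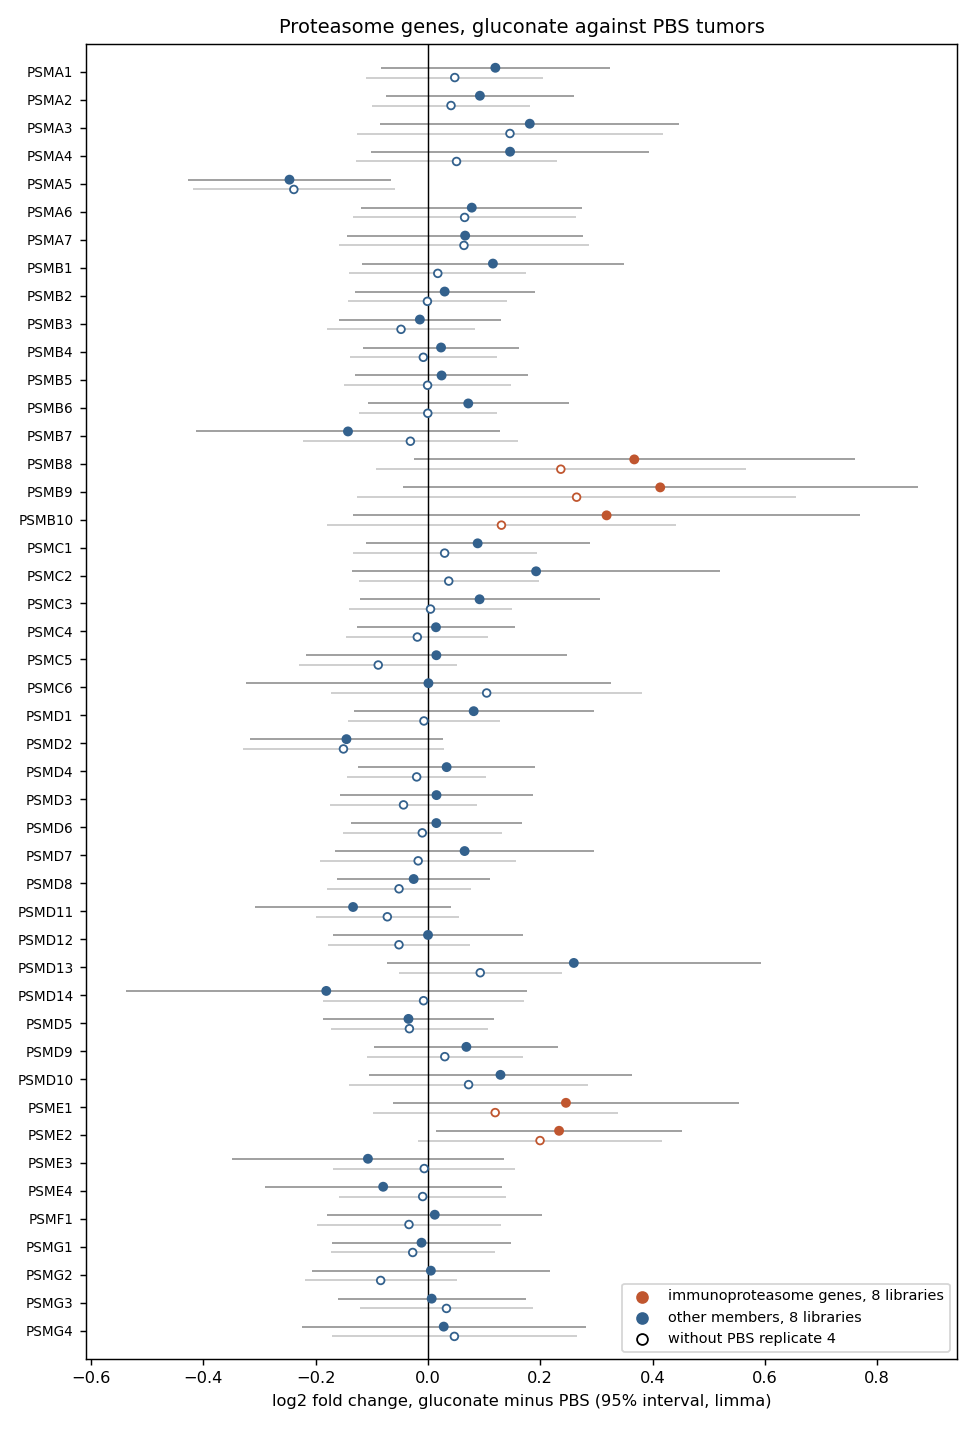
Log2 fold change of each tested member, gluconate minus PBS, with its 95% interval from limma, for all 8 libraries (filled) and without PBS replicate 4 (open), immunoproteasome genes in orange. PSMA5 lies left of 0 in both fits at -0.25 and -0.24, and the 5 immunoproteasome genes lie right of 0 in both, with intervals that include 0 except for PSME2 with all libraries.

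PSMA5, an alpha ring subunit encoded at chr1:109399031-109426427 (GRCh38, GENCODE 29, minus strand), was the single member called in every fit. Its level was 40.0, 41.1, 45.0 and 42.9 FPKM in PBS replicates 1 to 4 and 40.3, 33.8, 34.4 and 34.1 FPKM in gluconate replicates 1 to 4. Gluconate replicates 2 to 4 lay below every PBS library, and gluconate replicate 1 lay among the PBS values, so that the groups overlapped through this library alone. The means were 42.3 ± 2.18 FPKM in PBS and 35.7 ± 3.13 FPKM in gluconate tumors (SD, n = 4). The log2 fold change was -0.25 (SE 0.08), with an unadjusted p of 0.0129 and an adjusted p of 0.740 in limma. It was -0.24 without PBS replicate 4 and stayed under an unadjusted p of 0.05 in each of the 18 alternatives run. The exact permutation test gave p = 0.0571 (two-sided; the smallest p this design allows is 0.0286).

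The rest of the alpha ring did not move with PSMA5. The other 6 alpha subunits had log2 fold changes above 0, up to 0.18 for PSMA3 (0.15 without PBS replicate 4), and none passed the test. PSMA3 had 187, 151, 125 and 138 FPKM in PBS tumors and 184, 170.1, 156 and 164 FPKM in gluconate tumors, and its groups overlapped (unadjusted p = 0.159, adjusted p = 0.740, limma). Without PBS replicate 1, the highest of the 8 libraries for this gene, PSMA3 would count as higher, at a log2 fold change of 0.29.

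None of the 7 constitutive beta subunits passed the test. PSMB5, the chymotrypsin-like subunit, had 119, 105, 115 and 106 FPKM in PBS and 120.2, 113, 111 and 109 FPKM in gluconate tumors. PSMB6, the caspase-like subunit, had 135, 138, 136 and 112 FPKM in PBS and 136, 133, 135 and 142 FPKM in gluconate tumors. PSMB7, the trypsin-like subunit, had 224, 185, 224 and 286 FPKM in PBS and 224, 206, 198 and 196 FPKM in gluconate tumors. PBS replicate 4 was the lowest library for PSMB6 and the highest for PSMB7. The log2 fold changes were 0.02, 0.07 and -0.14 with all libraries and -0.00, -0.00 and -0.03 without PBS replicate 4. Without PBS replicate 2, the lowest library for PSMB7, that gene would count as lower, at a log2 fold change of -0.24. PSMB1, the subunit with the largest log2 fold change above 0 in this ring at 0.12, had 199.7, 175, 187 and 143 FPKM in PBS and 204, 189, 186 and 179.8 FPKM in gluconate tumors, and its value was 0.02 without PBS replicate 4.

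The 19S base gave 0 of 9 members past the test. PSMC2 had 17.6, 15.3, 15.8 and 10.5 FPKM in PBS and 16.9, 16.6, 15.7 and 17.2 FPKM in gluconate tumors, and PBS replicate 4 was the lowest library. Its log2 fold change of 0.19 became 0.04 without that library. PSMC6, at the other end of the ATPases, had 51.7, 42.7, 33.8 and 56.2 FPKM in PBS and 47.6, 47.2, 44.0 and 42.4 FPKM in gluconate tumors, with a log2 fold change of 0.00 and 0.10 without PBS replicate 4. PBS tumors spanned the whole gluconate range for this gene. PSMD1, the scaffold subunit of the base, had 42.9, 41.5, 41.3 and 32.8 FPKM in PBS and 42.2, 43.9, 41.6 and 39.3 FPKM in gluconate tumors, with a log2 fold change of 0.08, and -0.01 without PBS replicate 4. PSMD2 had 177, 189, 199 and 185 FPKM in PBS and 166, 180.5, 181 and 151 FPKM in gluconate tumors, and its groups overlapped. Its log2 fold change was -0.15 (SE 0.08; unadjusted p = 0.0893, adjusted p = 0.740, limma), with the same value of -0.15 without PBS replicate 4, and it would count as lower after scaling by median ratios, at -0.21.

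In the lid, PSMD13 was the 1 member of 46 whose groups did not overlap with all libraries, where 2.08% of all genes tested had every gluconate library above every PBS library. The reverse separation held for 0 of 46 members and 1.41% of all genes. Its level was 82.3, 81.1, 79.4 and 51.0 FPKM in PBS and 82.8, 94.6, 85.3 and 83.1 FPKM in gluconate tumors. PBS replicate 4 was far below the rest, while PBS replicates 1 to 3 ended just under the gluconate values. The log2 fold change was 0.26 (SE 0.15; unadjusted p = 0.112, adjusted p = 0.740, limma), and 0.09 without PBS replicate 4, where the groups still did not overlap (background 2.43%). PSMD12 had 25.27, 24.08, 23.95 and 21.15 FPKM in PBS and 23.39, 23.88, 23.36 and 23.61 FPKM in gluconate tumors, and without PBS replicate 4 its gluconate values lay below all PBS values (background 3.66%), at a log2 fold change of -0.05. PSMD14, the deubiquitinase of the lid, had 93.4, 75.7, 88.1 and 138 FPKM in PBS and 89.6, 86.7, 81.5 and 82.4 FPKM in gluconate tumors. PBS replicate 4 was again the library that stood off, here upward, and the log2 fold change of -0.18 became -0.01 without it.

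Chaperones, the inhibitor and the activators outside the immunoproteasome gave 0 of 10 members past the test. PSMD10 had 33.6, 29.0, 25.7 and 25.0 FPKM in PBS and 29.7, 32.7, 28.5 and 32.2 FPKM in gluconate tumors, and its log2 fold change was 0.13, and 0.07 without PBS replicate 4. It would count as higher without PBS replicate 1, at 0.21. PSMD5, at 21.3, 20.4, 20.0 and 20.6 FPKM in PBS and 19.6, 21.2, 19.7 and 19.9 FPKM in gluconate tumors, was even across all 8 libraries. PSMG2 was less even, running from 62.7 FPKM in PBS replicate 4 to 84.9 FPKM in PBS replicate 3. PSMG1 had 21.0, 19.7, 20.8 and 19.6 FPKM in PBS and 21.5, 19.3, 19.6 and 19.9 FPKM in gluconate tumors. PSMG4 had 1.97, 1.93, 1.90 and 2.04 FPKM in PBS and 2.10, 1.98, 1.96 and 1.97 FPKM in gluconate tumors. PSMF1 had 17.9, 20.4, 18.6 and 16.6 FPKM in PBS and 18.4, 17.1, 19.2 and 19.1 FPKM in gluconate tumors. In none of PSMD5, PSMG1, PSMG2, PSMG4 and PSMF1 did the group means differ by more than 0.05 on the log2 scale with all libraries, and PSMG2 was at -0.08 without PBS replicate 4. PSME3 had 63.6, 65.7, 64.0 and 85.1 FPKM in PBS and 60.5, 68.7, 68.8 and 59.1 FPKM in gluconate tumors. PSME4 had 8.50, 8.13, 8.04 and 10.01 FPKM in PBS and 8.34, 8.05, 7.95 and 8.34 FPKM in gluconate tumors. Both activators were highest in PBS replicate 4, and their log2 fold changes of -0.11 and -0.08 became -0.01 and -0.01 without it.

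The 5 immunoproteasome genes shared a pattern over the libraries that the other members did not show to the same extent. PSMB8 had 61.9, 62.1, 40.3 and 37.3 FPKM in PBS replicates 1 to 4 and 55.9, 63.8, 64.3 and 69.9 FPKM in gluconate tumors. PSMB9 had 47.6, 43.5, 27.3 and 25.4 FPKM in PBS and 38.8, 51.5, 48.1 and 47.1 FPKM in gluconate tumors. PSMB10 had 28.6, 30.9, 23.4 and 16.3 FPKM in PBS and 28.8, 27.5, 26.7 and 38.9 FPKM in gluconate tumors. In each gene, PBS replicates 3 and 4 lay below all gluconate libraries and PBS replicates 1 and 2 lay within the gluconate range. The PA28 genes followed the same order, with PSME1 at 112, 115, 94.1 and 75.2 FPKM in PBS and 112, 114, 106 and 134 FPKM in gluconate tumors. PSME2 had 94.1, 96.4, 75.3 and 80.2 FPKM in PBS and 99.2, 100.1, 94.1 and 112 FPKM in gluconate tumors. The groups therefore overlapped in all 5 genes, through PBS replicates 1 and 2. Exons of PSMB8 overlap exons of PSMB8-AS1 and PSMB9 on the opposite strand, those of PSME1 overlap EMC9 and those of PSME2 overlap RNF31, and strand use in counting is not given in the sources used here.

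PBS replicates 3 and 4 were the lowest pair of the 8 libraries in 5 of 5 immunoproteasome genes, in 3 of 41 other members (7.32%: PSMA3, PSMD13 and PSMD10) and in 2210 of all 12486 genes tested (17.7%). PBS replicate 3 had 39895393 fragments, within the range of the gluconate libraries. In PBS replicate 4 the 95% Poisson interval, which covers counting error only, was 32.6 to 42.5 FPKM for PSMB8, 20.7 to 30.8 FPKM for PSMB9 and 12.5 to 20.9 FPKM for PSMB10, below every gluconate library in each case. The summed level of the 5 genes was 344, 348, 260.5 and 234 FPKM in PBS and 334, 357, 339 and 402 FPKM in gluconate tumors, whereas the other members summed to 3174 to 3470 FPKM in PBS and 3269 to 3451 FPKM in gluconate tumors.

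**Figure D3:**
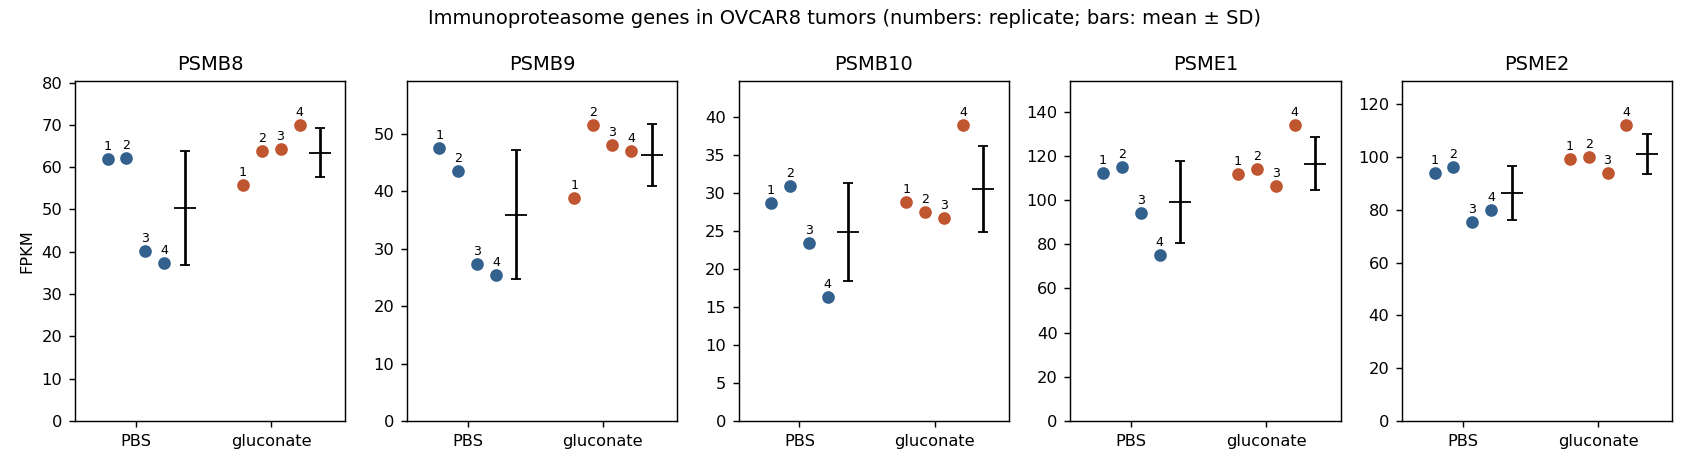
FPKM of the 5 immunoproteasome genes in each library (points, numbered by replicate; blue PBS, orange gluconate) with mean ± SD per group (n = 4), on axes from 0. In all 5 panels PBS replicates 3 and 4 are the lowest points and PBS replicates 1 and 2 lie at the height of the gluconate tumors, as for PSMB8 with 61.9, 62.1, 40.3 and 37.3 FPKM.

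Between groups, PSME2 was the single immunoproteasome gene past the test. Its means were 86.5 ± 10.3 FPKM in PBS and 101 ± 7.63 FPKM in gluconate tumors (SD, n = 4), a log2 fold change of 0.23 (SE 0.10; unadjusted p = 0.0387, adjusted p = 0.740, limma). The call was lost without PBS replicate 3 (0.17), PBS replicate 4 (0.20), gluconate replicate 1 (0.24), gluconate replicate 2 (0.24) or gluconate replicate 4 (0.18), and with limma voom on recovered fragments (0.21), an unmoderated fit (0.23) and scaling by median ratios (0.17), all on the log2 scale. PSMB9 had the largest difference of the 5 on the log2 scale, 35.9 ± 11.2 against 46.4 ± 5.38 FPKM, with a log2 fold change of 0.41 (SE 0.20; unadjusted p = 0.0721, adjusted p = 0.740, limma). PSMB8 had 50.4 ± 13.4 against 63.5 ± 5.77 FPKM and 0.37 (SE 0.17; unadjusted p = 0.0633, adjusted p = 0.740, limma). PSMB10 and PSME1 had log2 fold changes of 0.32 (SE 0.20; unadjusted p = 0.146) and 0.25 (SE 0.14; unadjusted p = 0.106), with a limma adjusted p of 0.740 for each.

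These values leaned on single PBS libraries in both directions. Without PBS replicate 4 the log2 fold changes of PSMB8, PSMB9, PSMB10 and PSME1 were 0.24, 0.26, 0.13 and 0.12. Without PBS replicate 1, PSMB8 (0.48), PSMB9 (0.57) and PSME2 (0.28) would count as higher, and without PBS replicate 2, PSMB8 (0.48), PSMB9 (0.52), PSME1 (0.32) and PSME2 (0.29) would. The median log2 fold change of the 5 genes was 0.32, against 0.02 for the 41 other members tested and 0.07 for all genes. Without PBS replicate 4 the same medians were 0.20, -0.01 and -0.00. The fold changes of the 5 genes stayed above 0 in all 18 alternatives. The summed level of the fibroblast markers was 207 to 432 FPKM in PBS tumors, lowest in PBS replicate 4, and 387 to 523 FPKM in gluconate tumors. Of these 10 markers 4 (COL1A2, DCN, PDGFRA and THY1) stayed below 1 FPKM throughout and SPARC alone passed the test (higher, at a log2 fold change of 0.45, and 0.33 without PBS replicate 4), or 1 of 6 tested where 3.13% of all genes were higher. All 6 were above 0, COL1A1 at 0.69 and FAP at 0.70 among them, with a median of 0.47, and 5 of 6 with a median of 0.22 without PBS replicate 4. Their part in the result was not tested.

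The balance between each immunoproteasome subunit and the constitutive subunit it replaces was compared within libraries, which removes any scaling of the library. PSMB8 made up 34.2%, 37.1%, 25.9% and 26.1% of the PSMB8 and PSMB5 total in PBS tumors and 31.7%, 36.2%, 36.8% and 39.0% in gluconate tumors. PSMB9 made up 26.0%, 24.0%, 16.7% and 18.5% of its total with PSMB6 in PBS and 22.3%, 27.9%, 26.2% and 24.9% in gluconate tumors. PSMB10 made up 11.3%, 14.3%, 9.48% and 5.39% of its total with PSMB7 in PBS and 11.4%, 11.8%, 11.9% and 16.6% in gluconate tumors. In every library the constitutive subunit was the more abundant RNA of the pair, and the groups overlapped in all 3 pairs. The 3 immunoproteasome subunits together took 19.0% ± 5.04 of the catalytic RNA in PBS and 23.5% ± 2.24 in gluconate tumors (SD, n = 4). The log2 ratio of subunit to counterpart was higher in gluconate tumors by 0.34 for PSMB8, 0.34 for PSMB9 and 0.46 for PSMB10, with SDs among PBS tumors of 0.38, 0.38 and 0.66, and these differences are given as a description with no test. Without a library at a time they ranged from 0.23 to 0.48, 0.21 to 0.47 and 0.16 to 0.68, the lowest for PSMB10 being 0.16 without PBS replicate 4.

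**Figure D4:**
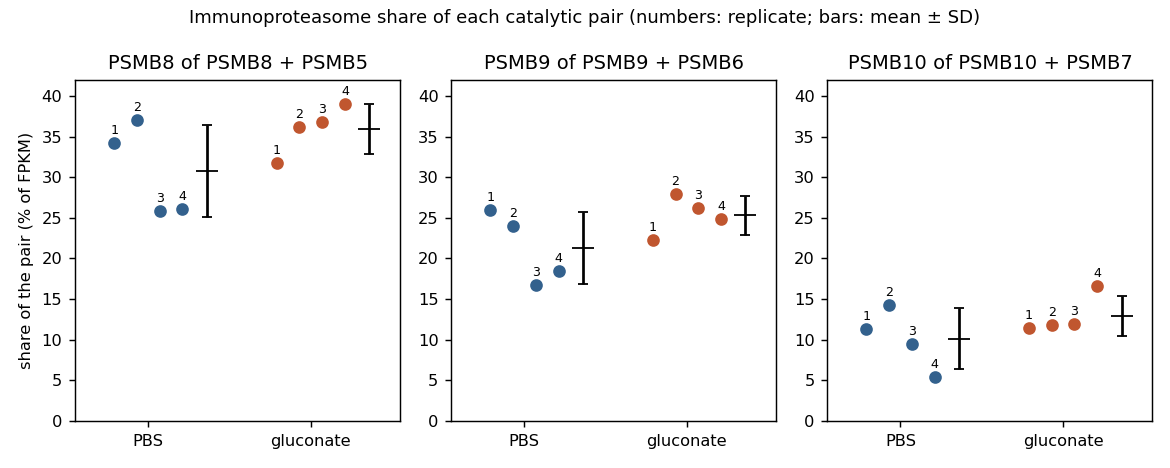
Share of each catalytic pair taken by the immunoproteasome subunit, in percent of the FPKM of the pair, per library (points, numbered by replicate; blue PBS, orange gluconate) with mean ± SD per group (n = 4). PBS replicates 3 and 4 have the lowest shares in all 3 pairs, and PBS replicates 1 and 2 lie at the height of the gluconate tumors.

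The starts of the immunoproteasome genes are shown because 4 of the 5 hold the same letters of an interferon response element there. The stretches run from 100 bases before to 20 bases after the start, 5′ to 3′ along the gene, from RefSeq on GRCh38.p14, and capitals mark a match to GAAANNGAAA on either strand. PSMB8 is at chr6:32844028-32844147 on the minus strand, PSMB9 at chr6:32854092-32854211 on the plus strand and PSMB10 at chr16:67936831-67936950 on the minus strand. PSME1 is at chr14:24136094-24136213 on the plus strand, PSME2 at chr14:24146591-24146710 on the minus strand and PSMG4, the other member with these letters, at chr6:3258847-3258966 on the plus strand. PSMB8 has 2 windows in RefSeq, of which the 1 with a match is shown.
PSMB8: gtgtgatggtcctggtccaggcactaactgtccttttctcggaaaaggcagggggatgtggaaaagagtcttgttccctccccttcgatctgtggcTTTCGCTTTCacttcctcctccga
PSMB9: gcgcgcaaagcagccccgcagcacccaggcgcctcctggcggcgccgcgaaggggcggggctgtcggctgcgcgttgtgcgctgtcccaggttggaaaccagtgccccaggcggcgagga
PSMB10: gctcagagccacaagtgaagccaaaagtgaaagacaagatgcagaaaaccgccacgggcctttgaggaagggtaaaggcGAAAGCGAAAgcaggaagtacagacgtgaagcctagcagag
PSME1: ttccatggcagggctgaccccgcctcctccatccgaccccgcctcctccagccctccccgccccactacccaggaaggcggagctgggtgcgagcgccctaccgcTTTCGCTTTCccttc
PSME2: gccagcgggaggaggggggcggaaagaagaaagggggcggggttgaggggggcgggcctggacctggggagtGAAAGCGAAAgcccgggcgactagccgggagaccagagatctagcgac
PSMG4: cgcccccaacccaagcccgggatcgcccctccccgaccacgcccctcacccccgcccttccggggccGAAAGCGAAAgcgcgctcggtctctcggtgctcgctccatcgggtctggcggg

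In windows of 250 bases before to 50 after the start, GAAANNGAAA on either strand was found in 4 of 5 immunoproteasome genes, in 3 of 36 other members with a window (8.33%: PSMA4, PSMB4 and PSMG4) and in 4.38% of the 27305 genes with a window. PSMB9, which shares a bidirectional promoter with TAP1, had no match in its window. The matches of PSMB8, PSMB10, PSME1 and PSME2 were all GAAAGCGAAA, read along the gene in PSMB10 and PSME2 and on the opposite strand in PSMB8 and PSME1. These exact letters, chosen after the matches were seen, stood in 34 of the 27305 genes (0.125%). The match began at -4 in PSMB8, -21 in PSMB10, 6 in PSME1 and -28 in PSME2, counted from the first transcribed base as 1. PSMG4 holds the same letters at -33, and its level lay between 1.90 FPKM in PBS replicate 3 and 2.10 FPKM in gluconate replicate 1. Exons of PSMG4 overlap exons of SLC22A23 and TUBB2B on the opposite strand, and strand use in counting is not given. Whether these letters go with RNA levels was not tested. TTCNNNGAA, the other motif of interferon-responsive promoters searched, was found in 1 of 5 immunoproteasome genes (PSMB8), in 6 of 36 other members (16.7%) and in 9.38% of all genes with a window. A match is a description of these letters and not a binding site.

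The genes on the interferon route to the immunoproteasome, a list of 16 receptors, kinases, transcription factors and MHC class I loading genes, shared part of this order of libraries. PBS replicates 3 and 4 were the lowest pair in 13 of 16 (81.2%), where this held for 17.7% of all genes tested, and PBS replicates 1 and 2 lay within the gluconate range in 7 of 16. Of the 16, 3 were higher in gluconate tumors (background 3.13%) and 0 lower (background 1.49%) at an unadjusted p under 0.05. IFNGR1, the ligand-binding chain of the interferon gamma receptor, had 13.0, 11.9, 11.7 and 9.22 FPKM in PBS and 14.2, 13.1, 14.4 and 16.0 FPKM in gluconate tumors. The groups did not overlap in IFNGR1 or in IFNAR1, a chain of the type I interferon receptor, with gluconate tumors higher, with or without PBS replicate 4, as held for 2.08% of all genes with all libraries and 2.43% without it. IFNAR1 was at most 11.1 FPKM in PBS and at least 11.3 FPKM in gluconate tumors, and its log2 fold change of 0.20 did not pass the test. IRF9, a DNA-binding factor of the interferon response, had 24.5, 25.6, 16.6 and 12.4 FPKM in PBS and 24.2, 26.9, 30.7 and 31.7 FPKM in gluconate tumors. IFNGR2, the second chain of the interferon gamma receptor, had 22.7 ± 2.26 FPKM in PBS and 26.8 ± 2.82 FPKM in gluconate tumors (SD, n = 4). The log2 fold changes of IFNGR1, IRF9 and IFNGR2 were 0.34 (unadjusted p = 0.0169), 0.57 (unadjusted p = 0.0277) and 0.24 (unadjusted p = 0.0413), with an adjusted p of 0.740 each in limma, and without PBS replicate 4 IFNGR1 (0.24) and IRF9 (0.36) still passed while IFNGR2 (0.18) did not. STAT2 had a log2 fold change of 0.49 and did not pass (0.24 without PBS replicate 4). The median of the 16 was 0.27, and 0.16 without PBS replicate 4, against 0.07 and -0.00 for all genes.

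The other genes that work with the proteasome stayed near the level of all genes. Of 17 partners outside the naming pattern (ubiquitin receptors, shuttle proteins, proteasome-bound deubiquitinases and the core maturation factor POMP), 1 was lower (background 1.49%) and 0 were higher (background 3.13%), and their median log2 fold change was 0.01. The lower gene was UBQLN4, a shuttle protein, at 15.0, 16.5, 15.3 and 18.6 FPKM in PBS and 13.2, 14.9, 14.6 and 13.8 FPKM in gluconate tumors (log2 fold change -0.21, unadjusted p = 0.0488, adjusted p = 0.740, limma), which was -0.14 and did not pass without PBS replicate 4. POMP had 85.9, 87.2, 95.9 and 79.4 FPKM in PBS and 89.9, 69.5, 74.9 and 75.3 FPKM in gluconate tumors, and it passed as lower without PBS replicate 4 (-0.22, from -0.17 with all libraries). ZFAND5, a ubiquitin-binding activator of the proteasome, lay between 25.9 and 32.1 FPKM in 7 libraries and at 80.4 FPKM in PBS replicate 4, and its log2 fold change of -0.33 became 0.04 without that library. The largest differences above 0 were those of PAAF1 (0.36, and 0.14 without PBS replicate 4) and SEM1 (0.15, and 0.05), and neither passed the test. Of 8 genes that control proteasome transcription, 0 passed in either direction. NFE2L1, the transcription factor that raises proteasome genes when activity falls short, had 55.1 ± 3.67 FPKM in PBS and 56.1 ± 1.52 FPKM in gluconate tumors (SD, n = 4), a log2 fold change of 0.03. The largest differences above 0 in that list were those of NFE2L2 (0.12) and MAFK (0.12), and the genes below 0 were MAFG (-0.12) and MAFF (-0.03). Without PBS replicate 4 these values were 0.04, -0.04, -0.11 and -0.10, and the list went from 6 of 8 genes above 0 (median 0.04) to 2 of 8 (median -0.03).

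Variation among tumors of the same group was small for most members. Within the gluconate group the median coefficient of variation was 4.54% for the 41 other members tested and 10.3% for the immunoproteasome genes, and among PBS replicates 1 to 3 the same medians were 4.44% and 13.9%. PBS replicate 4 was the lowest of the 8 libraries in 29 of 46 members, as it was in 58.0% of all genes tested, and the highest in 6 of 46, against 13.7% of all genes. Of the lid subunits, PSMD14 was highest in this library, at 138 FPKM, and PSMD13 was lowest in it, at 51.0 FPKM.

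**Figure D5:**
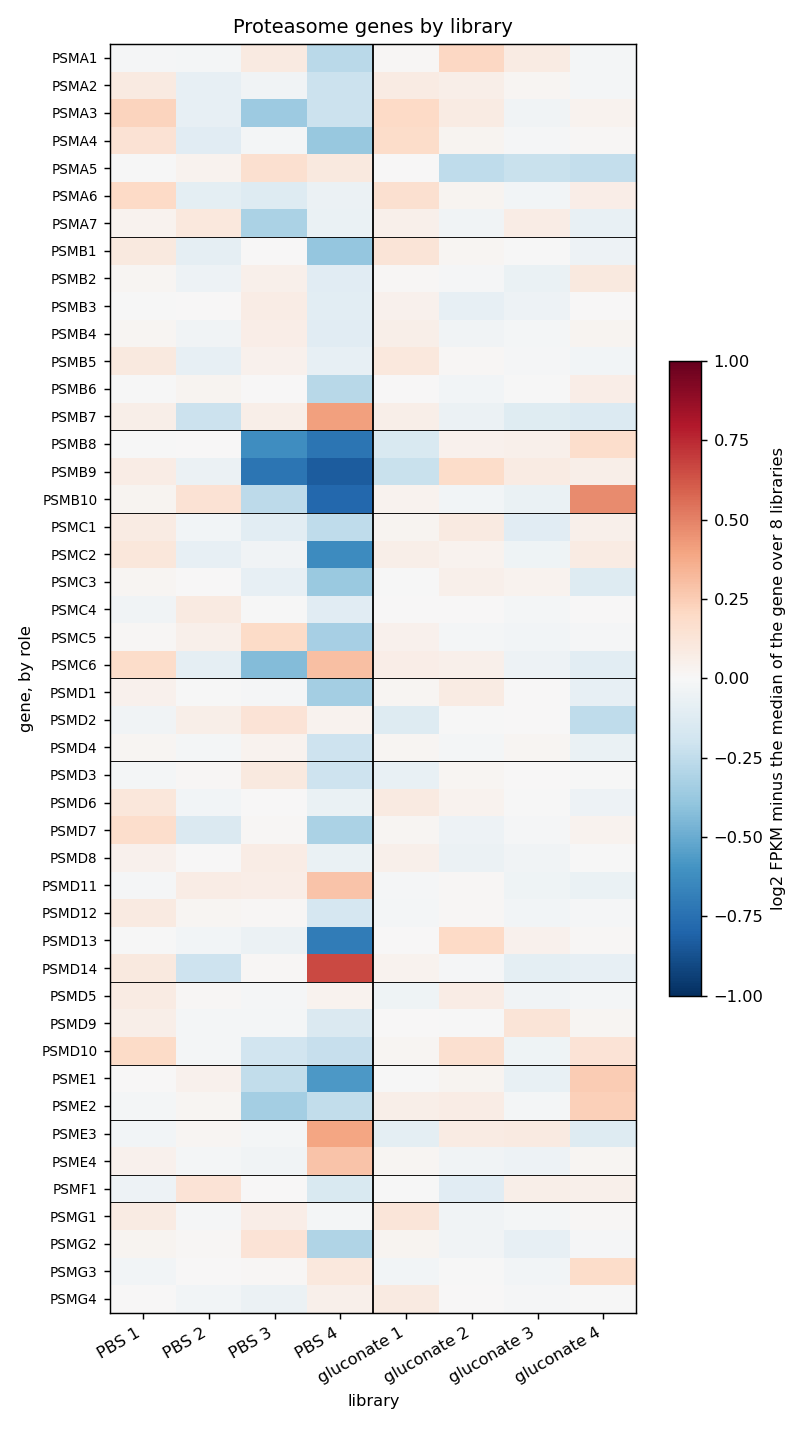
Log2 FPKM of each tested member in each library minus the median of that gene over the 8 libraries, with genes grouped by role (horizontal lines) and PBS left of the vertical line. PBS replicate 4 holds the deepest blue and red cells, PSMB8 and PSMB9 are also low in PBS replicate 3, and most other cells are pale.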

How the data were processed

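PolyA RNA-seq libraries of 8 OVCAR8 tumors were analysed. The authors deposited FPKM values for 24196 genes by symbol, and their processing notes name GRCh38. The aligner, the counter, the annotation, any removal of mouse reads and the strand setting are not given in the sources used here. FPKM steps gave whole fragments in 99.8% of values (within 0.01), from which depths of 3953206 to 46551535 fragments were computed. Intervals on fragments are 95% Poisson intervals and cover counting error only.

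Groups were compared with limma 3.58.1 in R 4.3.3 on log2(FPKM + 0.1), with lmFit and eBayes with a trend, over genes with a mean of at least 0.5 FPKM, since the study names an unpaired comparison. Fold changes are on the log2(FPKM + 0.1) scale, which understates those of low genes. Adjusted p-values are Benjamini-Hochberg over all genes tested. A gene was called at an unadjusted p under 0.05. No gene passed adjustment. Exact permutation tests were two-sided over 70 splits. The fits were tested on simulated data.

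The members, gene lists and tests were chosen with earlier results of these data known. Every library's value is given for the immunoproteasome genes, PSMB5, PSMB6, PSMB7, called members, members whose groups did not overlap and those with the largest or smallest fold change of their role. Of related lists (proteasome partners, transcription control, interferon route, and epithelial, fibroblast, endothelial, myeloid and lymphoid markers), called genes and those with the largest differences are named, and 1 gene of the interferon route is counted but not reported here. Alternatives were pseudocounts of 1 and 0.01, a minimum of 1 FPKM or none, median ratio scaling, quantile normalization, an unmoderated fit, voom on recovered fragments, a fit with the replicate number as a block and fits without each library in turn. Promoter windows came from RefSeq (GRCh38.p14), where 41 of 47 members matched by symbol, and gene positions from GENCODE 29. Python 3.11.15 with pandas 2.3.3, scipy 1.17.1 and matplotlib 3.10.9 was used.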

Additional observations from a re-analysis of the deposited data

Results flagged for a closer look

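In groups of 4, the following values stood off from the other 3 by a gap to the nearest that exceeded Dixon's 95% critical value, set as a share of the group's range. Of 58 groups examined 9 did so, and chance flags about 1 in 20, or 2.9 of 58. PBS replicate 4 gave 5 of them. Its depth was 3953206 fragments, against 39895393 to 46551535 in the other PBS libraries. PSMB6 had 112 FPKM there, against 135 to 138 FPKM in the other PBS tumors, PSMD1 had 32.8 FPKM against 41.3 to 42.9 FPKM, and PSMD13 had 51.0 FPKM against 79.4 to 82.3 FPKM. PSME3 had 85.1 FPKM there against 63.6 to 65.7 FPKM.

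Gluconate replicate 1 had 40.3 FPKM of PSMA5, against 33.8 to 34.4 FPKM in the other gluconate tumors, and 2.10 FPKM of PSMG4 against 1.96 to 1.98 FPKM. Gluconate replicate 4 had 38.9 FPKM of PSMB10 against 26.7 to 28.8 FPKM, and PSMB10 took 16.6% of its total with PSMB7 there, against 11.4% to 11.9%.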

How the results depend on the processing

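PSMA5 stayed lower in all 18 alternatives. The count of lower members was 2 under scaling by median ratios (PSMA5 and PSMD2) and 1 to 2 with a library left out, 2 coming without PBS replicate 2 (PSMA5 and PSMB7). The count of higher members was 0 under voom, voom without PBS replicate 4 (added after seeing the data), scaling by median ratios and the unmoderated fit, and 0 to 5 with a library left out: 5 without PBS replicate 1 (PSMA3, PSMB8, PSMB9, PSMD10 and PSME2), 4 without PBS replicate 2, and 0 without PBS replicate 3, PBS replicate 4 or gluconate replicates 1, 2 or 4. The median log2 fold change of the other members was -0.045 under scaling by median ratios. The causes were not tested.

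The log2 fold change changed sign in 7 of the 24 named members, none of which passed the test. Under voom, PSMF1 was -0.013; under voom without PBS replicate 4, PSMB5 was -0.00078, PSMB6 -0.00045, PSMD1 -0.0073 and PSMF1 -0.034. Under quantile normalization PSMB5 was -0.0011, PSMC6 -0.019, PSMF1 -0.013 and PSMG4 -0.059, and under scaling by median ratios these were -0.044, -0.067, -0.055 and -0.037. With a library left out, the range was -0.0048 to 0.058 for PSMB5, -0.00034 to 0.10 for PSMB6, -0.14 to 0.10 for PSMC6, -0.0072 to 0.12 for PSMD1, -0.034 to 0.063 for PSMF1 and -0.045 to 0.0067 for PSMG1.

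The labels do not say whether the replicate numbers pair the samples. The deviations of same-numbered libraries from their group means correlated at -0.18, 0.084, 0.17 and -0.057, which cannot settle it with so few libraries. With a replicate block, 1 member was lower and 1 higher, as without it (PSMA5 unadjusted p = 0.0176, PSME2 unadjusted p = 0.0451, limma). Depth limits PBS replicate 4 to an interval of 12.5 to 20.9 FPKM for PSMB10.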

Other observations

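Further motifs were counted in the promoters of the members. CCGGAAG, the core of an ETS site, was found on either strand of the windows of 14 of 36 members outside the immunoproteasome (38.9%), of 0 of 5 immunoproteasome genes and of 12.2% of all genes with a window. It stood in 6 lid genes (PSMD6, PSMD7, PSMD8, PSMD12, PSMD13 and PSMD14) and in 3 ATPase genes (PSMC1, PSMC2 and PSMC6). CCAAT was found in 19 of 36 other members (52.8%), in 1 of 5 immunoproteasome genes (PSMB9) and in 39.7% of all genes. TGANNNNGC, the core of the antioxidant response element, was found in 23 of 36 other members (63.9%), in 4 of 5 immunoproteasome genes and in 47.1% of all genes. These are counts of letters in windows of 300 bases. The shorter motifs can lie inside each other's matches.

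The 47 members lie on 17 chromosomes in GENCODE 29. Exons of 15 members overlap exons of a gene of the table on the opposite strand, as PSMD13 with SIRT3, and 10 members have named pseudogenes, which can share reads with them, PSMC1 having 13 and PSME2 having 2.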
